A study of Mus musculus with 12 samples.

Results

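The genes of cholesterol synthesis and sterol sensing were followed by bulk RNA-seq in neural progenitor cells (NPCs) of the mouse subventricular zone (SVZ), a germinal region of the brain. A fixed list of 30 symbols named the members. Of these, 28 were among the 24108 genes listed, and the symbols Sc4mol and Sc5dl, older names of Msmo1 and Sc5d, were not. Hmgcs1, which makes the precursor of mevalonate, was listed at 0 in all 12 libraries and was not tested. A count of 0 in the smallest library allows up to 0.182 CPM (counts scaled to a common library total) by counting error alone. This limit does not cover reads lost in alignment or in assignment to genes. Whether the Hmgcs1 counts of 0 reflect its expression was not tested. The other 27 members all passed the filter on low counts.

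There were 4 groups of 3 libraries. They held co-cultured p53-/- NPCs, p53-/- NPCs grown alone, co-cultured p53+/+ NPCs and p53+/+ NPCs grown alone. The NPCs came from C57BL/6 mice at postnatal day 9 to 12. The p53-/- NPCs were cells with floxed p53 alleles infected in culture with an adenovirus that carries Cre, and the p53+/+ NPCs were controls given an adenovirus without Cre. All groups had grown in a medium with 0.25% serum, EGF, bFGF and bovine pituitary extract. Co-culture meant 48 h on a monolayer of brain microvascular endothelial cells (bmvECs), from which the NPCs were then lifted by selective trypsin, and NPCs alone spent the same 48 h on laminin. The study asked how p53 acts on NPCs that endothelial contact holds in a resting state. The libraries fell into 3 experiments, named 17_9, 25_9 and 1_10 in the headers, with 1 library of each group in every experiment. Values of 3 libraries are given below in that order of experiments.

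Cholesterol is built from acetyl-CoA. The mevalonate steps give farnesyl diphosphate, squalene is made from it and closed to lanosterol, and a chain of further enzymes turns lanosterol into cholesterol. The genes of these enzymes are known targets of SREBP2, a transcription factor held in the endoplasmic reticulum membrane by Scap and the Insig proteins while sterols are plentiful and released when they run low. In the brain, cells make most of their own cholesterol, since lipoproteins of the blood do not cross the blood-brain barrier.

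Total counts ran between 16509710 and 22245224 per library. Trp53 fell in p53-/- NPCs, by 2.01 on the log2 scale in co-culture and by 2.71 alone, and its target Cdkn1a fell by 4.44 and 4.74 (adjusted p at most 0.000293 in edgeR). The summed level of 20 endothelial markers was 143 to 175 CPM in co-cultured p53-/- libraries, against 37.8 to 50.3 CPM in p53-/- libraries alone, and 153 to 232 CPM in co-cultured p53+/+ libraries, against 34.6 to 42.0 CPM in p53+/+ libraries alone. Much of the sum alone came from Plvap and Flt1, with means of 22.8 and 9.37 CPM in p53-/- and 19.1 and 9.86 CPM in p53+/+ NPCs alone. Cdh5 averaged 0.03 CPM alone in either genotype, against 21.6 CPM in co-cultured p53-/- and 28.5 CPM in co-cultured p53+/+ NPCs. Of the 19 markers tested, 17 rose in co-culture in p53-/- NPCs and 19 in p53+/+ NPCs. Sox17 had no count in either group alone, nor had Tie1 in p53+/+ NPCs alone, and no marker was at 0 throughout a co-culture group. The part of endothelial RNA in the co-culture results below was not tested. The 12 neural stem and progenitor markers summed to 18300 to 33500 CPM in the co-culture libraries and to 11400 to 16100 CPM in the libraries alone, and all 12 were detected in every group. They did not move one way: in each genotype 5 rose in co-culture (Gfap, Slc1a3, Aldoc, Aqp4 and Gja1) and 3 fell, among them Nes and Olig2. Gfap, an astrocyte and stem cell filament, made much of the sum, at 7023 ± 1882 CPM in co-cultured and 292 ± 111 CPM in p53-/- NPCs alone, and at 13080 ± 3839 CPM in co-cultured and 556 ± 129 CPM in p53+/+ NPCs alone (SD, n = 3 each). In bulk RNA, fewer cells of a type and less RNA per cell cannot be told apart.

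Most synthesis genes had their highest mean in p53-/- NPCs alone and their lowest in co-cultured p53+/+ NPCs. This order of means of 3 libraries was not tested. It did not hold in each experiment: in 17_9, 15 of 27 members were lower in co-cultured p53-/- than in co-cultured p53+/+ NPCs. Of the 19 enzymes tested, 18 were highest in p53-/- NPCs alone, 18 were lowest in co-cultured p53+/+ NPCs, and 17 did both. Over all 13745 genes tested, 35.9% had their highest mean in the first of these groups, 36.0% their lowest in the second, and 26.8% did both. Tm7sf2 and Hsd17b7 were the exceptions among the enzymes: Tm7sf2 was lowest in p53+/+ NPCs alone, and the Hsd17b7 means alone were 69.2 ± 12.6 CPM in p53-/- and 69.4 ± 18.2 CPM in p53+/+ NPCs (SD, n = 3 each). The range between the highest and the lowest group mean was 4.01-fold for Acat2, 3.74-fold for Lbr, 3.21-fold for Fdps, 2.93-fold for Lss and 2.89-fold for Idi1, and was smallest among the enzymes for Ggps1, at 1.35-fold. The sensing genes Srebf2, Scap and Insig2 had ranges of 1.34-, 1.30- and 1.18-fold. Npc1, Npc2 and Soat1 did not follow the order of the enzymes and had their highest mean in a co-culture group. The plot of levels by library shows 15 of the members, and Lss, Idi1 and Ggps1 are not among them.

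**Figure D1:**
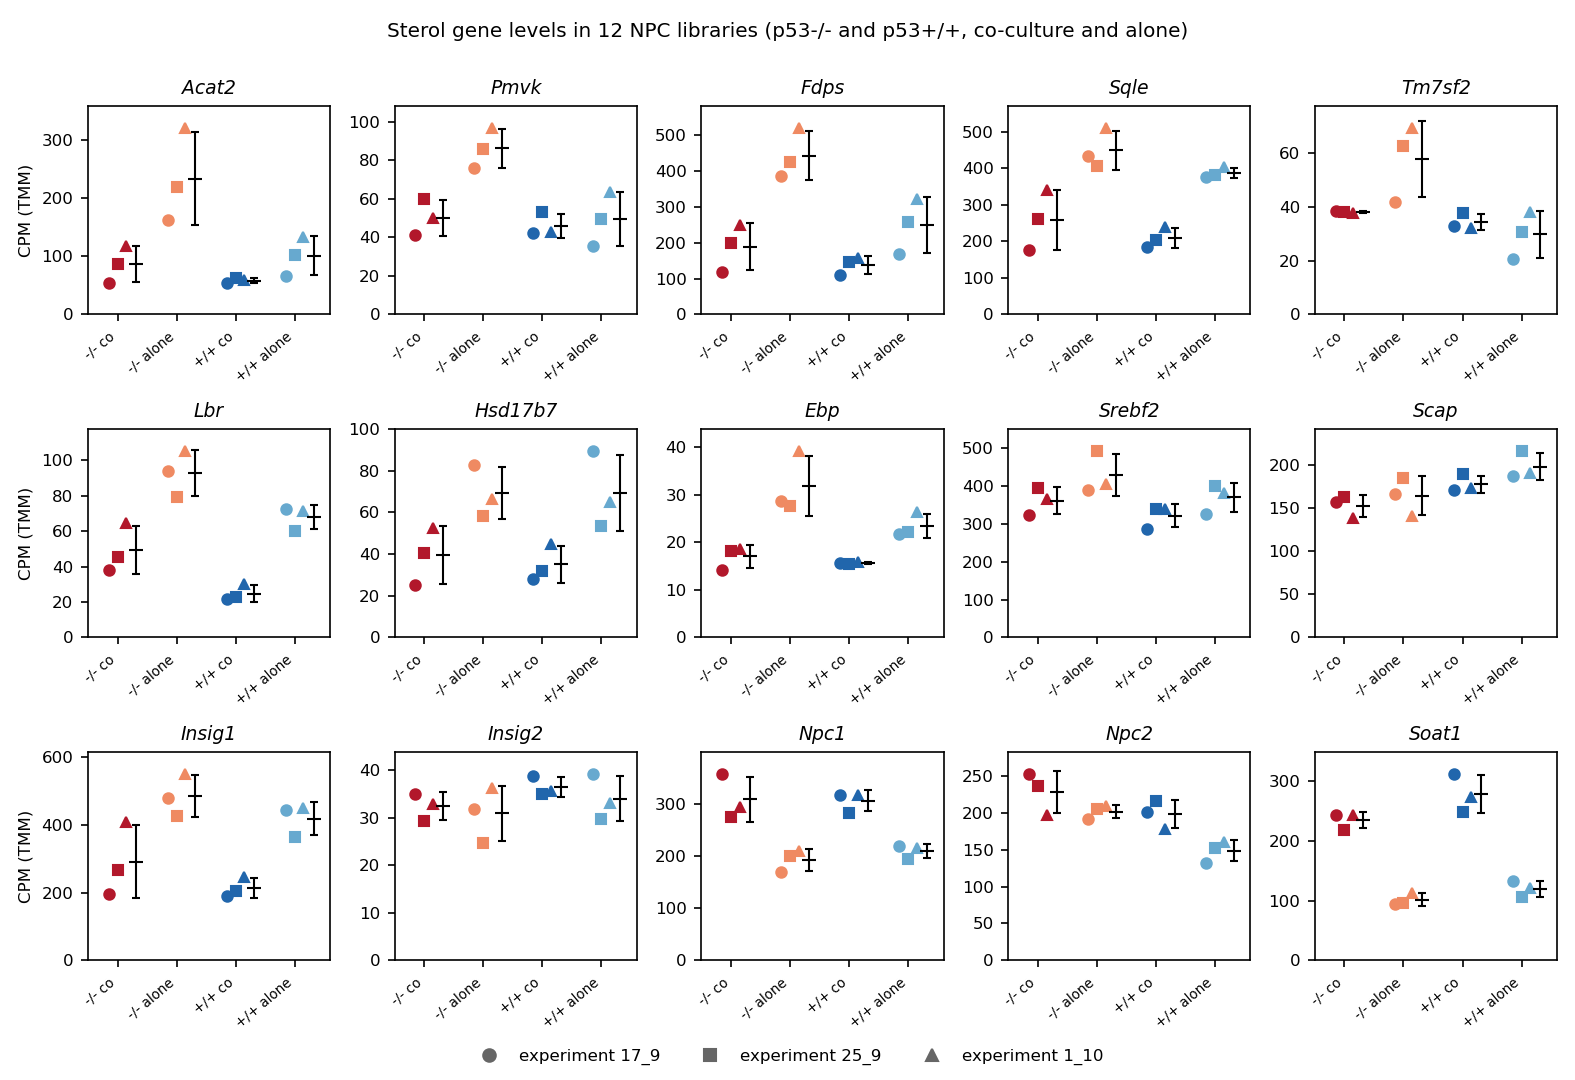
Level of 15 sterol genes in each of the 12 libraries, in CPM with TMM factors that adjust library sizes, with 1 panel per gene and its own axis from 0. Groups are p53-/- in co-culture, p53-/- alone, p53+/+ in co-culture and p53+/+ alone. Symbols mark the experiment, and the black bar is the mean ± SD of 3 libraries. Acat2 is highest in the 3 p53-/- libraries alone, between 163 and 320.5 CPM, while Soat1 is higher in the 6 co-culture libraries, between 218 and 310.4 CPM, than in the 6 alone, between 94.4 and 133 CPM.

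Promoters are shown for 4 members whose levels moved in different ways. These are Lbr and Tm7sf2, which catalyze the same step of the pathway, Insig1, a known SREBP2 target, and Soat1, which moved against the synthesis genes. The windows run from 250 bases before to 50 bases after the start (RefSeq, GRCm38.p6) and are written 5′ to 3′, with the NF-Y box (CCAAT, on either strand) in capitals. NF-Y is a factor known to act beside SREBP2 at many of its targets. Lbr lies at chr1:181842352-181842651, minus strand, Tm7sf2 at chr19:6067801-6068100, minus strand, Insig1 at chr5:28071162-28071461, plus strand, and Soat1 at chr1:156474279-156474578, minus strand.
Lbr: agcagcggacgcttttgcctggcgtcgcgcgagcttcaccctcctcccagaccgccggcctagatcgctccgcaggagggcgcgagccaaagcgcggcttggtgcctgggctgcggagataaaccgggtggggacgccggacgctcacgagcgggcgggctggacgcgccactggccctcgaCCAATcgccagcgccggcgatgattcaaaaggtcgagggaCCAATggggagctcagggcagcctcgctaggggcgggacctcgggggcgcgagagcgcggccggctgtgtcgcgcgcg
Tm7sf2: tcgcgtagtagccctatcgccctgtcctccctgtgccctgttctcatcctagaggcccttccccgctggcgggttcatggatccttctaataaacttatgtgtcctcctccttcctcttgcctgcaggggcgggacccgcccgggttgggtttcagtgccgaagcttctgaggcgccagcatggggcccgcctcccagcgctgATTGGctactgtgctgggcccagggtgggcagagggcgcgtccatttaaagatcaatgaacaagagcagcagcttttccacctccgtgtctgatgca
Insig1: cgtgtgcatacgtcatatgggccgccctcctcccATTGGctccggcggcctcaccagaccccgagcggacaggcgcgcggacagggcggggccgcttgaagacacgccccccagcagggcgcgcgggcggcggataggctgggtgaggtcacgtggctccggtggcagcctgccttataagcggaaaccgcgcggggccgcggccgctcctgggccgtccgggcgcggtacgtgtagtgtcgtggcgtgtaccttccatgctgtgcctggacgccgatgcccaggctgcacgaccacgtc
Soat1: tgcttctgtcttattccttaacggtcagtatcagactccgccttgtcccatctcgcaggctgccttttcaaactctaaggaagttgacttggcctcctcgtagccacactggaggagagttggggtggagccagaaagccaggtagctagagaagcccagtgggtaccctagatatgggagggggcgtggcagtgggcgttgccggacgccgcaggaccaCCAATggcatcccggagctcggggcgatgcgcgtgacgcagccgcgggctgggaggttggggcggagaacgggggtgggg
Of the 28 members listed, 23 had a window in the table, and Fdps, Fdft1, Sqle, Stard4 and Npc1 had none. The NF-Y box was found in 21 of them (91.3%), against 43.2% of the 10296 tested genes with a window and 41.1% of all 27025 genes with one. The 2 without it were Acat2 and Scap. The Sp1 box (GGGCGG) was also found in 21 of the 23, against 69.7% of tested genes and 38.2% of all genes. The classical sterol regulatory element (TCACNCCAC) was found in 1 member, Hmgcs1, which has no counts here, and in 1.38% of tested genes and 1.44% of all genes. Each motif was searched on both strands by itself, whether or not it overlapped another, and a gene counted once over its windows. A match is a description of the letters and not a site shown to be bound. Only these exact letters within the windows were searched, so a missing match does not show that a promoter lacks a site.

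Many synthesis genes fell in co-culture, in NPCs of both genotypes. In p53-/- NPCs, 14 of 27 members fell and 2 rose (adjusted p under 0.05, edgeR quasi-likelihood test), where 17% of all genes tested fell and 18.8% rose. In p53+/+ NPCs, 8 of 27 fell and 3 rose, where 18.3% of all genes fell and 21.2% rose. The median log2 fold change of the 27 members was -0.72 in p53-/- NPCs, against -0.01 over all genes, and -0.39 in p53+/+ NPCs, against 0.00 over all genes. In p53-/- NPCs all 19 enzymes had a fold change below 0, and 13 of them fell. In p53+/+ NPCs 18 of 19 were below 0, and 6 fell. The share of all genes below 0 was not counted. With the experiment as a block, 21 members fell and 2 rose in p53-/- NPCs (23.2% and 24.3% of all genes), and 15 fell and 3 rose in p53+/+ NPCs (24.1% and 26.2%).

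In fits without the experiment block, the counts of fallen genes depended on single libraries. In p53-/- NPCs 14 became 5 without the co-cultured library of experiment 17_9, 8 without the co-cultured library of 25_9, 8 without the library alone of 1_10, and 3 without all libraries of 25_9. Over all genes, 2341 were lower in p53-/- NPCs, and in the same fits 1294, 1616, 1952 and 804 were. In p53+/+ NPCs 8 became 4 without the co-cultured library of 17_9, 5 without that of 25_9, 4 without the library alone of 1_10, and 1 without experiment 25_9, where also only 1 of the 3 risen members kept its call. Over all genes, 2522 were lower in p53+/+ NPCs, and in these fits 1510, 1762, 1929 and 780 were, so calls were lost over all genes as well.

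**Figure D2:**
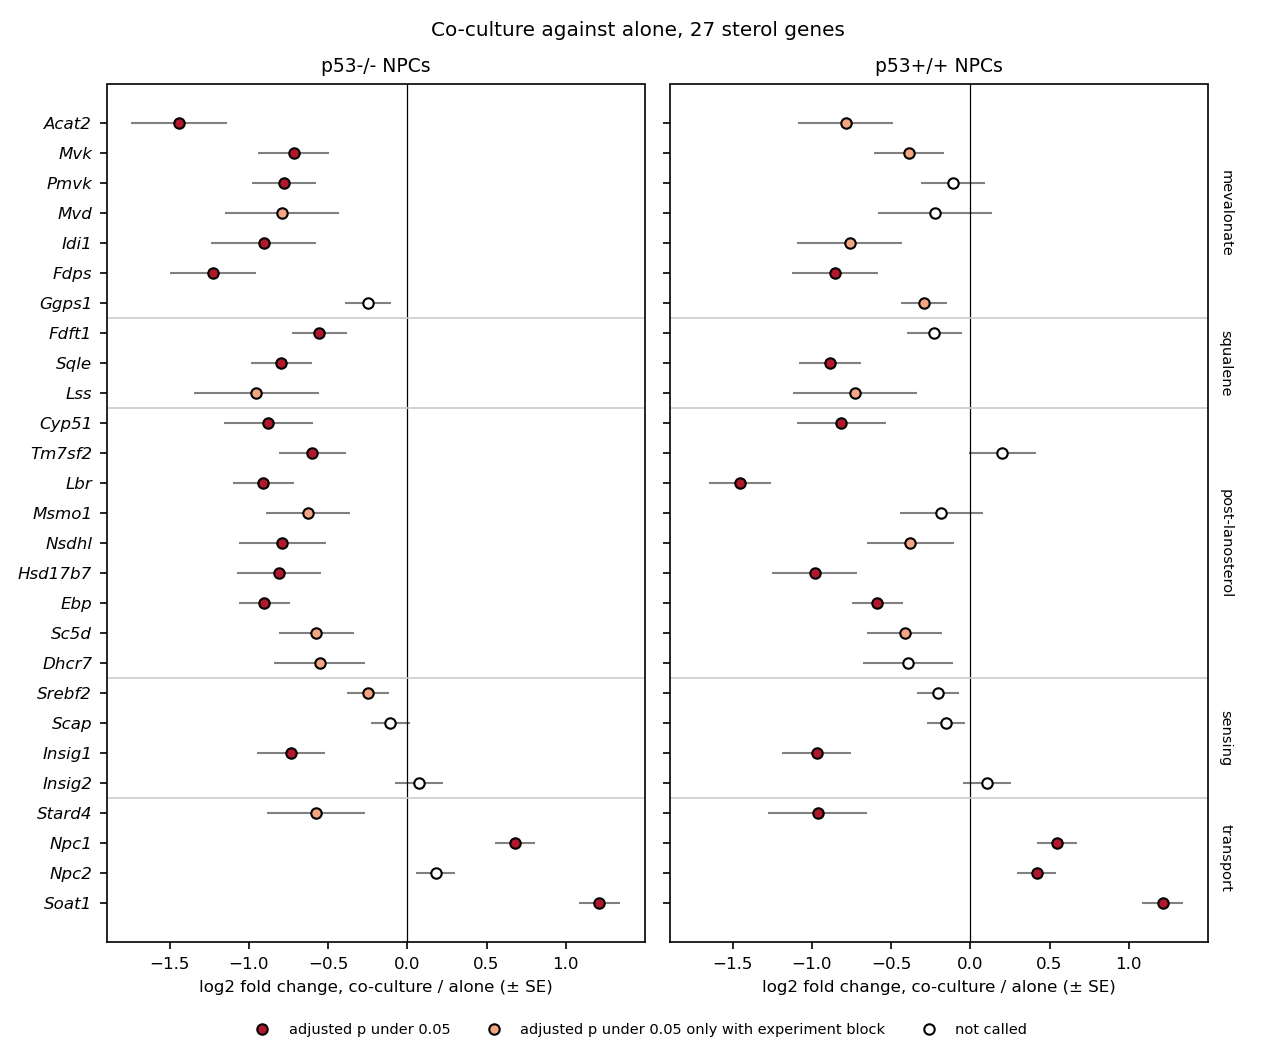
Log2 fold change of the 27 tested members between co-culture and alone, with its SE, in p53-/- NPCs (left) and p53+/+ NPCs (right), ordered by role. Filled red points had an adjusted p under 0.05, orange points only with the experiment as a block, and open points in neither fit. The enzymes lie left of 0 in p53-/- NPCs without exception, while Soat1 lies at 1.21 in both genotypes.

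Of the 7 mevalonate genes tested, 5 fell in co-culture in p53-/- NPCs and 1 in p53+/+ NPCs. Acat2, a thiolase that joins acetyl-CoA units at the head of the pathway, fell most in p53-/- NPCs. Acat2 stood at 54.6, 87.2 and 117 CPM in co-cultured p53-/- NPCs, against 163, 219 and 320.5 CPM in p53-/- NPCs alone. The groups did not overlap, and the log2 fold change was -1.44 ± 0.30 (adjusted p = 0.00322). Of 15 fits that each left out a library or an experiment, the call was lost only without experiment 25_9 (adjusted p = 0.0544). In p53+/+ NPCs, Acat2 was at 53.6, 62.5 and 59.3 CPM in co-culture, against 66.5, 102 and 134 CPM alone. The difference was -0.79 ± 0.30 (adjusted p = 0.0531, and 0.00223 with the experiment block). Acat3, a neighbouring copy of Acat2 named here after its values were seen, had 8.36, 9.44 and 7.16 CPM in co-cultured and 1.36, 1.32 and 1.11 CPM in p53-/- NPCs alone, and 19, 17 and 13 CPM in co-cultured and 1.56, 1.54 and 0.966 CPM in p53+/+ NPCs alone. It thus rose in both genotypes, by 2.71 ± 0.24 (adjusted p = 7.03e-06) in p53-/- and 3.59 ± 0.24 (adjusted p = 5.84e-07) in p53+/+ NPCs. How reads that fit both copies were counted is not given in the sources used here. A sum of the 2 genes would not restore reads left out of both. With the counts of both genes summed, the change was -1.31 ± 0.29 (adjusted p = 0.00403) in p53-/- NPCs and -0.45 ± 0.29 (adjusted p = 0.226) in p53+/+ NPCs.

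Fdps, which makes farnesyl diphosphate, was the mevalonate gene that fell in both genotypes. Fdps stood at 118, 199 and 250.0 CPM in co-cultured p53-/- NPCs, against 387, 424 and 519 CPM in p53-/- NPCs alone. The co-cultured p53+/+ libraries had 109.9, 146 and 158 CPM, against 168, 258 and 322 CPM in p53+/+ NPCs alone. In both genotypes every co-cultured library was below every library alone. The log2 fold change was -1.23 ± 0.27 (adjusted p = 0.0042) in p53-/- NPCs and -0.85 ± 0.27 (adjusted p = 0.0236) in p53+/+ NPCs. The p53-/- call was lost without experiment 25_9 (adjusted p up to 0.0599), and the p53+/+ call was lost without the p53+/+ co-culture library of 17_9, the p53+/+ alone library of 25_9, the p53+/+ co-culture library of 25_9, the p53+/+ alone library of 1_10, experiment 25_9 or experiment 1_10 (adjusted p up to 0.171). Pmvk stood at 41, 59.8 and 49.9 CPM in co-cultured p53-/- NPCs, against 76, 86 and 96.6 CPM in p53-/- NPCs alone. Co-cultured p53+/+ NPCs had 42.1, 53.2 and 42.7 CPM of Pmvk, against 35.4, 49.6 and 63.8 CPM in p53+/+ NPCs alone. Pmvk, the phosphomevalonate kinase, was lower in every co-cultured p53-/- library (-0.78 ± 0.20, adjusted p = 0.00982), with overlapping p53+/+ groups (-0.11 ± 0.20, adjusted p = 0.694). Its p53-/- call was lost without the p53-/- co-culture library of 17_9 or experiment 1_10 (adjusted p up to 0.0628).

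The remaining mevalonate genes had smaller or more variable changes. Mvk, the kinase before Pmvk, averaged 41.9 ± 9.28 CPM in co-cultured and 69 ± 8.64 CPM in p53-/- NPCs alone (SD, n = 3 each), a change of -0.72 ± 0.22 (adjusted p = 0.0233) that was lost without the p53-/- co-culture library of 17_9, the p53-/- alone library of 25_9, experiment 25_9 or experiment 1_10 (adjusted p up to 0.112). Idi1, the isomerase of the activated isoprene units, averaged 287 ± 160.4 CPM in co-cultured and 539 ± 188 CPM in p53-/- NPCs alone, and these groups overlapped. Its change of -0.91 ± 0.33 lay just inside the threshold (adjusted p = 0.0486) and kept its call in 4 of 15 such fits, with adjusted p up to 0.191 without the p53-/- library alone of 1_10. In p53+/+ NPCs Mvk changed by -0.39 ± 0.22 and Idi1 by -0.76 ± 0.33, which passed only with the experiment block (adjusted p = 0.0162 and 0.00709). Mvd, the decarboxylase, changed by -0.79 ± 0.36 in p53-/- NPCs (adjusted p = 0.103, and 0.00285 with the experiment block). Ggps1, which turns farnesyl diphosphate toward protein prenylation and away from sterols, changed by -0.25 ± 0.14 in p53-/- and -0.29 ± 0.14 in p53+/+ NPCs, and passed only in p53+/+ NPCs with the block (adjusted p = 0.0491).

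Of the squalene genes, Sqle fell in both genotypes. It encodes squalene epoxidase, which makes the first oxygenated intermediate. Sqle stood at 175, 262 and 340.2 CPM in co-cultured p53-/- NPCs, against 434, 406 and 509.7 CPM in p53-/- NPCs alone. Its p53+/+ libraries had 186, 205 and 239 CPM in co-culture, against 377, 382 and 405 CPM alone. The groups were apart in both genotypes, with log2 fold changes of -0.80 ± 0.19 (adjusted p = 0.00713) in p53-/- and -0.89 ± 0.19 (adjusted p = 0.00321) in p53+/+ NPCs, and both calls were lost only without experiment 25_9 (adjusted p = 0.0713 and 0.0722). Fdft1, the squalene synthase, averaged 183 ± 47.2 CPM in co-cultured and 269 ± 33.3 CPM in p53-/- NPCs alone and fell by 0.55 (adjusted p = 0.0241). That call was lost without the p53-/- co-culture library of 17_9, the p53-/- alone library of 1_10, experiment 25_9 or experiment 1_10 (adjusted p up to 0.125). The change of Fdft1 in p53+/+ NPCs was -0.23 ± 0.17 (adjusted p = 0.313). Lss, which closes the ring to lanosterol, changed by -0.95 ± 0.39 and -0.73 ± 0.39 in p53-/- and p53+/+ NPCs. It passed in both genotypes only with the experiment as a block (adjusted p = 0.000964 and 0.0131), and its level differed widely between experiments, for example 52.6, 119.8 and 161 CPM in p53+/+ NPCs alone. Fdft1 shares exon sequence with Ctsb on the opposite strand in the GENCODE annotation. The strand setting of the counts is not given in the sources used here, so Fdft1 reads may include some of Ctsb. Exons of Cyp51, Ggps1, Lbr and Npc1 also overlap protein-coding genes on the opposite strand (Akap9, Arid4b, Dnah14 and Rmc1). On the same strand, Fdps overlaps Gm43738 and Lbr overlaps Gm26004. The part of these overlaps in the counts was not tested.

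Lbr and Tm7sf2 encode reductases of the same step after lanosterol, and Lbr is also a receptor for lamin B in the inner nuclear membrane. Lbr stood at 37.9, 45.6 and 64.4 CPM in co-cultured p53-/- NPCs, against 93.7, 78.9 and 105 CPM in p53-/- NPCs alone. In p53+/+ NPCs, Lbr was at 21.5, 22.7 and 30.1 CPM in co-culture, against 72.2, 60.2 and 71.2 CPM alone. Lbr fell in both genotypes without overlap, with log2 fold changes of -0.91 ± 0.19 (adjusted p = 0.00337) in p53-/- and -1.46 ± 0.20 (adjusted p = 0.000132) in p53+/+ NPCs, and kept both calls in all 15 fits that left out a library or an experiment. Tm7sf2 stood at 38.5, 38.2 and 38 CPM in co-cultured p53-/- NPCs, against 41.9, 62.6 and 69.3 CPM in p53-/- NPCs alone. The co-cultured p53+/+ libraries had 32.9, 37.7 and 32.2 CPM, against 20.5, 30.8 and 38 CPM in p53+/+ NPCs alone. Tm7sf2 fell in co-culture in p53-/- NPCs (-0.60 ± 0.21, adjusted p = 0.0405), and the p53+/+ groups overlapped (0.20 ± 0.21, adjusted p = 0.475). The Tm7sf2 call held in 5 of 15 such fits, with adjusted p up to 0.252 without experiment 25_9, and its exons overlap those of Vps51 on the same strand in the GENCODE annotation. On the same step, then, Lbr had the largest fall of the 27 members in p53+/+ NPCs, and Tm7sf2 was the enzyme with a fold change above 0 there.

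Cyp51, Hsd17b7 and Ebp fell in both genotypes as well. Cyp51, the lanosterol demethylase, averaged 298 ± 138 CPM in co-cultured and 546 ± 137 CPM in p53-/- NPCs alone, and 231 ± 30.1 CPM in co-cultured and 406 ± 59.7 CPM in p53+/+ NPCs alone (SD, n = 3 each). Its changes were -0.88 ± 0.28 (adjusted p = 0.0274) in p53-/- and -0.81 ± 0.28 (adjusted p = 0.0345) in p53+/+ NPCs. The p53-/- call was lost without the p53-/- co-culture library of 17_9, the p53-/- co-culture library of 25_9, the p53-/- alone library of 1_10, experiment 17_9 or experiment 25_9 (adjusted p up to 0.149), and the p53+/+ call was lost without the p53+/+ co-culture library of 17_9, the p53+/+ alone library of 25_9, the p53+/+ co-culture library of 25_9, the p53+/+ alone library of 1_10 or experiment 25_9 (adjusted p up to 0.216). Hsd17b7 stood at 25.1, 40.6 and 52.8 CPM in co-cultured p53-/- NPCs, against 82.9, 58.2 and 66.7 CPM in p53-/- NPCs alone. Co-cultured p53+/+ NPCs had 28.2, 31.9 and 45 CPM of Hsd17b7, against 89.3, 53.7 and 65 CPM in p53+/+ NPCs alone. Hsd17b7, a sterol ketone reductase, was lower in all co-cultured libraries of both genotypes (-0.81 ± 0.27, adjusted p = 0.0308 in p53-/- and -0.98 ± 0.27, adjusted p = 0.0111 in p53+/+ NPCs). Ebp stood at 14.2, 18.2 and 18.5 CPM in co-cultured p53-/- NPCs, against 28.7, 27.7 and 39.1 CPM in p53-/- NPCs alone. Its p53+/+ libraries had 15.6, 15.3 and 15.9 CPM in co-culture, against 21.8, 22.1 and 26.3 CPM alone. Ebp, the isomerase of the sterol ring, changed by -0.90 ± 0.16 (adjusted p = 0.0012) in p53-/- NPCs, a call kept in all 15 fits, and by -0.59 ± 0.16 (adjusted p = 0.012) in p53+/+ NPCs, lost without the p53+/+ alone library of 1_10 or experiment 25_9 (adjusted p up to 0.106). Its 3 co-cultured p53+/+ libraries lay within 15.3 to 15.9 CPM. The Hsd17b7 call was lost without the p53-/- alone library of 17_9, the p53-/- co-culture library of 17_9, the p53-/- co-culture library of 25_9, experiment 17_9 or experiment 25_9 (adjusted p up to 0.189) in p53-/- NPCs, and lost without the p53+/+ co-culture library of 17_9 or experiment 25_9 (adjusted p up to 0.0742) in p53+/+ NPCs.

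Nsdhl, a dehydrogenase that removes a methyl group of the ring, changed by -0.79 ± 0.27 (adjusted p = 0.0383) in p53-/- NPCs with overlapping groups, and by -0.38 ± 0.27 in p53+/+ NPCs, where it passed only with the experiment block (adjusted p = 0.0354). The p53-/- call held in 7 of 15 such fits, with adjusted p up to 0.19 without experiment 25_9. Msmo1, the methyl sterol oxidase before it, Sc5d, a desaturase, and Dhcr7, a reductase at the end of the pathway, did not pass in either genotype. Their changes were -0.63 ± 0.26, -0.58 ± 0.24 and -0.55 ± 0.29 in p53-/- NPCs, where all of them passed with the experiment as a block (adjusted p = 0.00823, 0.0057 and 0.0047). In p53+/+ NPCs they were -0.18 ± 0.26, -0.41 ± 0.24 and -0.39 ± 0.29, and of these Sc5d passed with the block (adjusted p = 0.042).

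Of the sensing genes, Insig1 fell and the others did not pass the test. Insig1 holds the SREBP2 complex in the endoplasmic reticulum and is itself a known SREBP target. Insig1 stood at 196, 268 and 409 CPM in co-cultured p53-/- NPCs, against 479, 425 and 548 CPM in p53-/- NPCs alone. In p53+/+ NPCs, Insig1 was at 191, 204 and 245 CPM in co-culture, against 442, 362 and 449 CPM alone. All co-cultured libraries were below those alone in both genotypes, with log2 fold changes of -0.73 ± 0.22 (adjusted p = 0.019) in p53-/- and -0.97 ± 0.22 (adjusted p = 0.0038) in p53+/+ NPCs. The p53-/- call was lost without the p53-/- co-culture library of 17_9, the p53-/- co-culture library of 25_9, the p53-/- alone library of 1_10, experiment 17_9 or experiment 25_9 (adjusted p up to 0.132), and the p53+/+ call was lost without experiment 25_9 (adjusted p up to 0.0534). Srebf2 stood at 324, 394 and 367 CPM in co-cultured p53-/- NPCs, against 390.5, 492 and 406 CPM in p53-/- NPCs alone. The co-cultured p53+/+ libraries had 286, 339 and 339 CPM, against 328, 401 and 383 CPM in p53+/+ NPCs alone. Srebf2, the gene of SREBP2 itself, had overlapping groups and changed by -0.25 ± 0.13 (adjusted p = 0.156) and -0.21 ± 0.13 (adjusted p = 0.232) in p53-/- and p53+/+ NPCs, passing in p53-/- NPCs only with the experiment block (adjusted p = 0.0352).

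Scap stood at 157, 162 and 138 CPM in co-cultured p53-/- NPCs, against 166, 185 and 141 CPM in p53-/- NPCs alone. Co-cultured p53+/+ NPCs had 170.2, 189 and 173 CPM of Scap, against 187, 215 and 189.8 CPM in p53+/+ NPCs alone. Scap, the escort protein of SREBP2, changed by -0.11 ± 0.12 in p53-/- and -0.15 ± 0.12 in p53+/+ NPCs, with overlapping groups. Insig2 stood at 35, 29.3 and 32.9 CPM in co-cultured p53-/- NPCs, against 31.7, 24.7 and 36.2 CPM in p53-/- NPCs alone. Its p53+/+ libraries had 38.7, 35 and 35.5 CPM in co-culture, against 39.1, 29.8 and 33 CPM alone. Insig2, a relative of Insig1 that is not known as an SREBP target, changed by 0.07 ± 0.15 and 0.10 ± 0.15. The co-culture groups of Insig2 overlapped those alone in both genotypes.

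The transport and storage genes split. Soat1, which esterifies cholesterol for storage in lipid droplets, rose in both genotypes. Soat1 stood at 242, 218 and 242 CPM in co-cultured p53-/- NPCs, against 94.4, 96 and 113 CPM in p53-/- NPCs alone. In p53+/+ NPCs, Soat1 was at 310.4, 248 and 273 CPM in co-culture, against 133, 105 and 120.2 CPM alone. Every co-cultured library was above every library alone, and the changes were 1.21 ± 0.13 (adjusted p = 3.03e-05) in p53-/- and 1.21 ± 0.13 (adjusted p = 2.05e-05) in p53+/+ NPCs, kept in all 15 fits. Npc1 stood at 356, 274 and 294 CPM in co-cultured p53-/- NPCs, against 168, 199 and 209.5 CPM in p53-/- NPCs alone. The co-cultured p53+/+ libraries had 317, 282 and 317 CPM, against 218, 195 and 216 CPM in p53+/+ NPCs alone. Npc1, the membrane protein that releases cholesterol from lysosomes, rose by 0.68 ± 0.13 (adjusted p = 0.00156) in p53-/- and 0.54 ± 0.13 (adjusted p = 0.00461) in p53+/+ NPCs without overlap, and only the p53+/+ call was lost, without experiment 25_9 (adjusted p = 0.0712).

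Npc2 stood at 252, 236 and 197 CPM in co-cultured p53-/- NPCs, against 191, 204 and 208 CPM in p53-/- NPCs alone. Co-cultured p53+/+ NPCs had 202, 215 and 178 CPM of Npc2, against 132, 152 and 160.1 CPM in p53+/+ NPCs alone. Npc2, the soluble partner that hands cholesterol to Npc1, rose in p53+/+ NPCs (0.42 ± 0.12, adjusted p = 0.0171), while the p53-/- groups overlapped (0.18 ± 0.12, adjusted p = 0.272). The Npc2 call was lost without the p53+/+ alone library of 17_9, the p53+/+ co-culture library of 17_9, the p53+/+ co-culture library of 25_9, experiment 17_9 or experiment 25_9 (adjusted p up to 0.205). Stard4, a cytosolic sterol carrier and known SREBP target, averaged 36.8 ± 8.57 CPM in co-cultured and 71.8 ± 11.5 CPM in p53+/+ NPCs alone (SD, n = 3 each) and fell by 0.96 (adjusted p = 0.0266). This call was lost without the p53+/+ co-culture library of 17_9, the p53+/+ co-culture library of 25_9, the p53+/+ alone library of 1_10 or experiment 25_9 (adjusted p up to 0.192). In p53-/- NPCs it averaged 64.2 ± 29.4 CPM in co-culture and 95.7 ± 32.5 CPM alone, and passed only with the experiment block (-0.58 ± 0.31, adjusted p = 0.161, and 0.00634 with the block).

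Loss of p53 raised few sterol genes past the threshold in the unblocked fit and more once the experiment entered as a block. Between p53-/- and p53+/+ NPCs alone, 3 of 27 members rose and none fell, where 2.02% of all genes tested rose and 4.27% fell. With the block, 15 of 27 rose and none fell, where 7.25% of all genes rose and 9.33% fell. In co-culture, 1 member rose and none fell (3.24% and 4.93% of all genes), a share of risen members near that of all genes, and 5 rose and none fell with the block (9.99% and 10.9%). DESeq2 gave 5 risen members alone and 1 in co-culture and no fallen members. Over all 24108 genes listed, DESeq2 had 522 higher and 955 lower alone, and 745 higher and 997 lower in co-culture. At an unadjusted p under 0.05 edgeR had 1 fallen member alone, Scap, and none in co-culture. All genes were not counted at that threshold in these comparisons, and risen members at it are not given here. The count of fallen members was therefore not read as a result. The median log2 fold change of the members was 0.45 alone, against 0.05 over all genes, and 0.24 in co-culture, against 0.02 over all genes. Of the members, 22 of 27 were above 0 alone and 24 of 27 in co-culture. The share of all genes above 0 was not counted, and their median was above 0 in both comparisons. In fits without the experiment block, the 3 calls alone were lost when only the libraries alone were fitted. They were also lost without the library alone of p53+/+ 17_9, p53+/+ 25_9, p53-/- 25_9 or p53-/- 1_10, or experiment 25_9 or 1_10. Each of these fits left 0, and no leave-out fit was run with the block. Over all genes, 277 were higher alone, and in these fits 43, 86, 99, 172, 123, 13 and 51 were. Calls were thus lost over all genes as well.

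**Figure D3:**
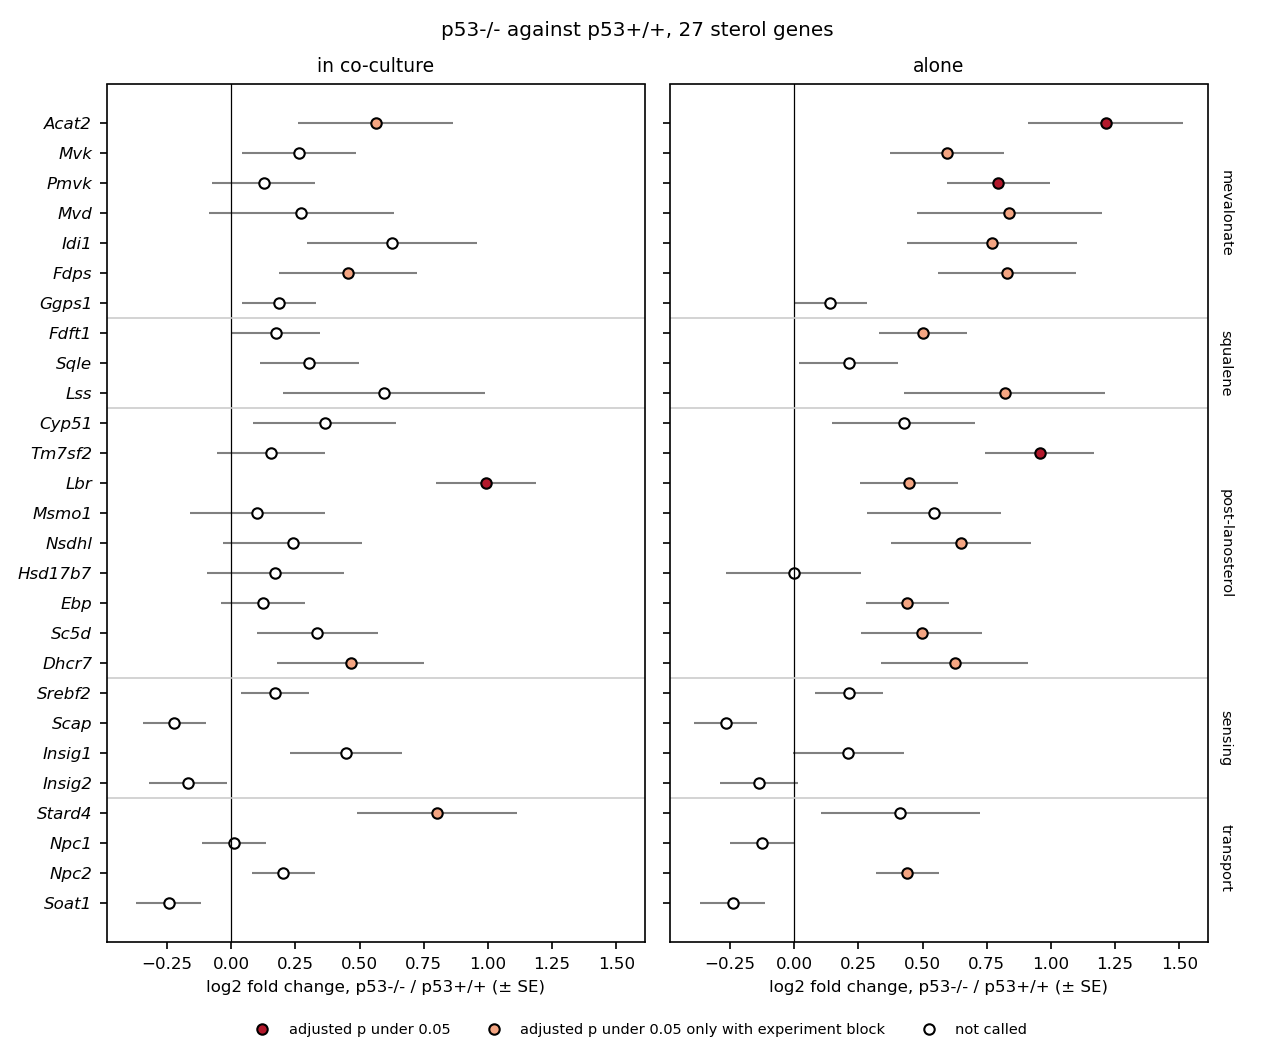
Log2 fold change of the 27 tested members between p53-/- and p53+/+ NPCs, with its SE, in co-culture (left) and alone (right), ordered by role. Filled red points had an adjusted p under 0.05, orange points only with the experiment as a block, and open points in neither fit. Alone, the mevalonate genes lie between 0.14 and 1.21, and Scap, Insig2, Npc1 and Soat1 lie left of 0.

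In NPCs alone, the members that rose were Acat2, Tm7sf2 and Pmvk. Acat2 averaged 234 ± 79.8 CPM in p53-/- and 101 ± 33.6 CPM in p53+/+ NPCs (SD, n = 3 each), a change of 1.21 ± 0.30 (adjusted p = 0.032), and no p53-/- library was as low as the highest p53+/+ library. Acat3 had at most 1.56 CPM in these libraries, and the change of the summed counts was 1.20 ± 0.29 (adjusted p = 0.0273). Tm7sf2 averaged 57.9 ± 14.3 CPM in p53-/- and 29.8 ± 8.82 CPM in p53+/+ NPCs (0.96 ± 0.21, adjusted p = 0.0185). Pmvk averaged 86.2 ± 10.3 CPM in p53-/- and 49.6 ± 14.2 CPM in p53+/+ NPCs (0.80 ± 0.20, adjusted p = 0.0349). The groups did not overlap in these genes, and the calls of Acat2 and Tm7sf2 held in 9 of 15 fits that left out a library or an experiment and that of Pmvk in 5, with adjusted p up to 0.263, 0.247 and 0.247 without experiment 25_9.

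Of the other mevalonate genes, Mvk, Mvd, Idi1 and Fdps passed alone with the experiment as a block. Their changes without it were 0.60 ± 0.22, 0.84 ± 0.36, 0.77 ± 0.33 and 0.83 ± 0.27, with adjusted p of 0.125, 0.179, 0.18 and 0.0868, and with it 0.00348, 0.0051, 0.0272 and 0.000925. Fdps averaged 443 ± 68.3 CPM in p53-/- and 249 ± 77.7 CPM in p53+/+ NPCs, without overlap. Among the squalene genes Fdft1 (0.50 ± 0.17) and Lss (0.82 ± 0.39) passed with the block (adjusted p = 0.0143 and 0.00622), and Sqle, the gene between them, did not (0.21 ± 0.19, adjusted p = 0.328). After lanosterol, Lbr, Nsdhl, Ebp, Sc5d and Dhcr7 joined Tm7sf2 with the block, with changes between 0.44 for Ebp and 0.65 for Nsdhl in the unblocked fit. Hsd17b7 stood at -0.0014 ± 0.26. Cyp51 and Msmo1, at 0.43 ± 0.28 and 0.55 ± 0.26, passed in neither fit.

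In co-culture, Lbr was the member that rose with p53 loss. It averaged 49.3 ± 13.6 CPM in p53-/- and 24.8 ± 4.65 CPM in p53+/+ NPCs (SD, n = 3 each), 0.99 ± 0.20 (adjusted p = 0.00927), and the lowest p53-/- library, at 37.9 CPM, was above the highest p53+/+ library, at 30.1 CPM. The call was lost without the co-cultured p53+/+ library of 17_9 and without experiment 25_9 (highest adjusted p 0.211), which left no member called. Without the co-cultured p53-/- library of 17_9, 3 members rose. Over all genes, 445 were higher with p53 loss in co-culture, and in these fits 72, 2 and 562 were. With the experiment as a block, Acat2, Fdps, Dhcr7 and Stard4 rose too. Their unblocked changes were 0.56 ± 0.30, 0.46 ± 0.27, 0.47 ± 0.29 and 0.80 ± 0.31, and their blocked adjusted p was 0.0435, 0.0395, 0.0395 and 0.00647. Acat3 changed the other way in co-culture, by -0.97 ± 0.21 (adjusted p = 0.0141), and the summed counts of Acat2 and Acat3 changed by 0.34 ± 0.29 (adjusted p = 0.49). The summed level of the endothelial markers in co-culture was 143 to 175 CPM in p53-/- and 153 to 232 CPM in p53+/+ libraries, and its part in these differences was not tested.

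The sensing and lysosomal genes gave no call for p53 loss in the unblocked fit. Insig1 changed by 0.45 ± 0.22 in co-culture and 0.21 ± 0.22 alone, and Srebf2 by 0.17 ± 0.13 and 0.21 ± 0.13. Scap stood lower in every p53-/- library than in any p53+/+ library of the same culture, with log2 fold changes of -0.22 ± 0.12 in co-culture and -0.27 ± 0.12 alone, and did not pass (adjusted p = 0.287 and 0.206). Soat1 changed by -0.24 ± 0.13 and -0.24 ± 0.13, and Npc1 by 0.01 ± 0.13 and -0.12 ± 0.13. Npc2 averaged 201 ± 9.02 CPM in p53-/- and 148 ± 14.2 CPM in p53+/+ NPCs alone, without overlap, and lay just outside the threshold (0.44 ± 0.12, adjusted p = 0.0525, and 0.0244 with the block).

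The p53 loss was also read within each experiment, as a description with no test. These ratios, and those of co-culture below, were taken for the 27 members only. No value over all genes stands beside them. Within an experiment, the median log2 ratio of the 27 members between p53-/- and p53+/+ NPCs in co-culture was -0.04 in 17_9, 0.22 in 25_9 and 0.49 in 1_10, with 12, 23 and 23 members above 0. Alone, it was 0.40, 0.41 and 0.56, with 21, 24 and 24 members above 0. The co-cultured p53-/- library of 17_9 was thus no higher than its p53+/+ partner over the pathway. Idi1, for example, had 146, 255 and 462 CPM in co-cultured p53-/- NPCs, against 165, 180.3 and 213 CPM in co-cultured p53+/+ NPCs. The median ratio between co-culture and alone was -0.88, -0.60 and -0.52 in p53-/- NPCs and -0.19, -0.39 and -0.57 in p53+/+ NPCs, so that in each experiment and genotype most members were lower in co-culture.

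**Figure D4:**
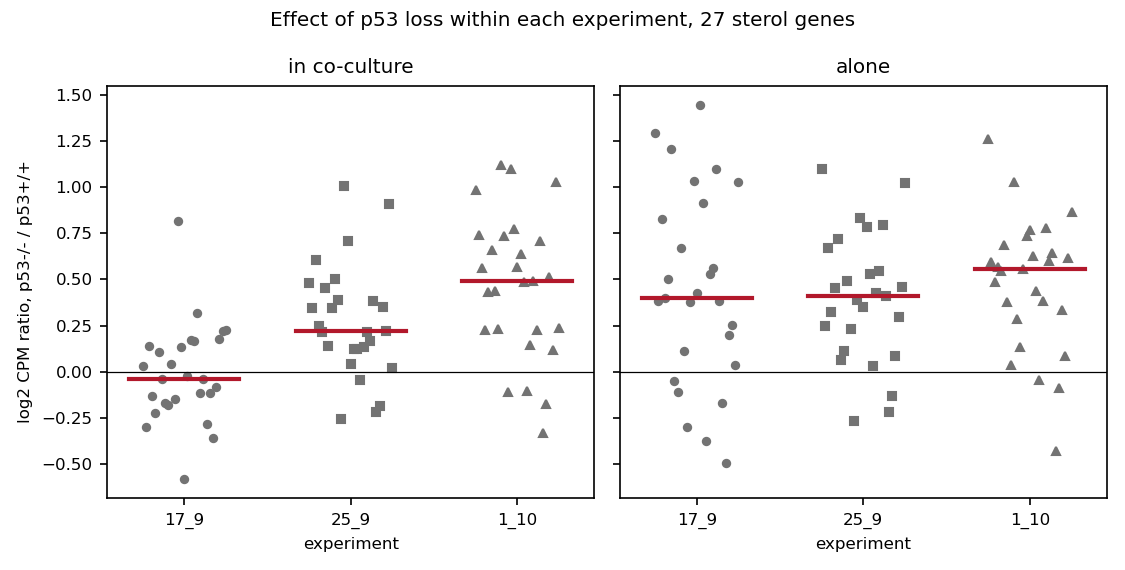
Log2 ratio of CPM between p53-/- and p53+/+ NPCs within each of the 3 experiments, in co-culture (left) and alone (right). Each point is 1 of 27 members, and the red line is their median. The medians in co-culture are -0.04, 0.22 and 0.49, and those alone are 0.40, 0.41 and 0.56.

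Whether co-culture acted differently on the pathway in the 2 genotypes was tested by the interaction, the co-culture change in p53-/- NPCs minus that in p53+/+ NPCs. No member passed in edgeR, with or without the experiment block, or in DESeq2, where 0% of all genes tested were higher and 0.0364% lower in edgeR (0.0218% and 0.0582% with the block). At an unadjusted p under 0.05 there were 2 of 27 members and 976 of 13745 genes. These 2 were Tm7sf2 (-0.80 ± 0.30, adjusted p = 0.684) and Pmvk (-0.67 ± 0.28, adjusted p = 0.7). For Lbr the interaction was 0.55 ± 0.27 (adjusted p = 0.708), for Acat2 -0.65 ± 0.42 (adjusted p = 0.788), and for Soat1 -0.0032 ± 0.18 (adjusted p = 1). The median over the members was -0.16, against -0.02 over all genes, and 19 of 27 were below 0. For all genes the share below 0 was not counted. The larger count of fallen genes in p53-/- NPCs is therefore not shown to be a different response.

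Genes around the pathway, from lists of SREBP processing, isoprenoid branches, other sterol carriers, and oxysterols with liver X receptors, were counted beside the members. Of 39 such genes tested, 9 rose and 3 fell in co-culture in p53-/- NPCs, and 9 rose and 1 fell in p53+/+ NPCs, with medians of -0.01 and 0.08. Over all genes, 18.8% rose and 17% fell in p53-/- NPCs and 21.2% and 18.3% in p53+/+ NPCs, so the share of the 39 that rose was near that of all genes. The oxysterol and liver X receptor genes gave 5 of 9 risen and none fallen in p53-/- NPCs and 4 of 9 risen and none fallen in p53+/+ NPCs. Abcg1, a sterol exporter and known liver X receptor target, rose by 2.30 ± 0.41 (adjusted p = 0.0011) and 1.85 ± 0.39 (adjusted p = 0.00258) in p53-/- and p53+/+ NPCs. Cyp7b1, an oxysterol hydroxylase, rose by 1.96 ± 0.24 (adjusted p = 9.01e-05) and 2.33 ± 0.24 (adjusted p = 1.85e-05). Gramd1b, a carrier of plasma membrane cholesterol, rose by 1.38 ± 0.21 in p53-/- NPCs, and Cyp46a1, which hydroxylates cholesterol for export from neurons, by 1.30 ± 0.33 in p53+/+ NPCs (adjusted p = 0.000424 and 0.00713). Endothelial markers rose with them in these libraries, as given above, and their part was not tested.

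With p53 loss, 1 of the 39 genes fell alone and 3 in co-culture, and none rose, where 4.27% of all genes fell alone and 4.93% in co-culture, so these counts are near the background. The gene that fell alone was Vldlr, a lipoprotein receptor (-0.97 ± 0.18, adjusted p = 0.00724). Those that fell in co-culture were Rabggta, a subunit of an enzyme that prenylates Rab proteins (-0.53 ± 0.14, adjusted p = 0.0378), Srebf1, which encodes the SREBP best known for fatty acid synthesis (-0.46 ± 0.12, adjusted p = 0.0317), and Scp2, a sterol carrier (-0.40 ± 0.10, adjusted p = 0.0234). The median over the 39 genes was 0.01 alone and -0.07 in co-culture.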

How the data were processed

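Bulk RNA-seq was performed on 12 libraries of SVZ NPCs, in 4 groups of 3 from 3 independent experiments. Libraries were stranded mRNA libraries read as paired reads of 100 bases. According to the methods and the submitters' processing notes, the authors used TopHat2 2.0.11 for alignment, with mm9 as the genome, and HTSeq 0.6.1 for counting, and deposited raw counts per gene. Not given in the sources used here are the annotation version, the strand setting and the authors' design, so genes that overlap another or have a near-identical copy are uncertain.

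Of 24108 listed genes, 18810 had a count, and filterByExpr in edgeR 4.0.16 (R 4.3.3) kept 13745. After TMM scaling (factors 0.961 to 1.04), all 12 libraries entered 1 quasi-likelihood fit, with a term for each of the 4 groups, from which 5 comparisons were tested. P-values were adjusted by Benjamini-Hochberg over all genes in each comparison, and genes with an adjusted p under 0.05 were called. Every ± beside a log2 fold change is its SE, taken as the absolute fold change over the root of the F statistic. The depth of 16509710 to 22245224 counts limits the precision of low genes. Columns were assigned to groups by the key to their letter codes in the study's supplementary table of counts, which also says that equal experiment numbers are paired. Deviations from the group means correlated at 0.128 to 0.618 in all 18 pairs of the same experiment and at -0.608 to 0.241 in 36 other pairs, so the experiment was also fitted as a block.

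The members and lists were chosen with earlier results of these data known. Values in every library are given for the 12 members with the smallest adjusted p in any comparison and for the 4 sensing genes, 15 in all. Of the surrounding genes, at most 3 called ones per comparison are named, by the size of the change. Alternatives were the block, DESeq2 1.42.0 and its size factors, library size alone, no filter or at least 10 counts in every library, only the groups compared, each library or experiment left out, and the sum of Acat2 and Acat3 counts, which was added after seeing the data. Every alternative other than the block itself, and so every fit that left out a library or an experiment, had no block. Scripts were tested on simulated counts. Promoter windows came from RefSeq (GRCm38.p6) by symbol, and exon overlaps from GENCODE on the same assembly. Neither build is that of the counts, and no coordinate was moved between builds. Figures were drawn with matplotlib 3.10.9.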

Additional observations from a re-analysis of the deposited data

How the results depend on the processing

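The direction of every called member held under all alternatives run. Over the members and comparisons, 999 single fold changes stayed on their side of the threshold, 42 passed it and 12 no longer did under the alternatives other than leaving out libraries, and 1887, 31 and 107 did so with a library or an experiment left out. With the replicate block on the experiment, the number of members lower in co-culture in p53+/+ NPCs was 15, against 8, the number raised by p53 loss was 15 alone, against 3, and 5 in co-culture, against 1. The block moved the number lower in co-culture in p53-/- NPCs to 21, against 14, and no count of the interaction. For p53 loss alone, DESeq2 called 5 members higher and a fit of the libraries alone called 0, where 522 and 43 of all genes were higher. Leaving out a library or an experiment gave 1 to 11 members lower and 1 to 3 higher in co-culture in p53+/+ NPCs, 3 to 17 lower in p53-/- NPCs, and 0 to 4 higher with p53 loss alone and 0 to 3 in co-culture. Over all genes, the same fits gave 780 to 2936 lower and 1209 to 3051 higher in p53+/+ NPCs, 804 to 2627 lower in p53-/- NPCs, and 13 to 221 higher with p53 loss alone and 2 to 591 in co-culture. The cause of these shifts was not tested, and fewer libraries enter each of the last fits. Over all genes, library size alone as the scaling gave 624 genes higher and 555 lower with p53 loss in co-culture, against 445 and 677, and no scaling moved the median of all genes by over 0.1. With 3 libraries a group, members with variable levels, such as Lss and Idi1, have SEs of up to 0.39 in a comparison of 2 groups without the block.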
